A study of Mus musculus with 2 samples.

Results

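Macrophages decide whether to eat a neighbouring cell from signals on its surface. The set described here holds 8 of the 32285 genes measured, chosen by name: the ligands Cd47 and Cd24a, which tell a macrophage to hold back; Sirpa, the inhibitory receptor that reads Cd47; Calr (calreticulin), a chaperone that calls for engulfment when it reaches the cell surface; Lrp1, the receptor through which surface calreticulin acts; and Gas6 with Mertk and Axl, a bridging protein and 2 of its receptor kinases. Each symbol named 1 gene in the files.

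Cd47 binds Sirpa, whose cytoplasmic tail then recruits phosphatases that restrain the phagocyte. Gas6 works the other way: it binds phosphatidylserine, the lipid that dying cells expose, and Mertk or Axl on the phagocyte, and so tethers the dying cell for uptake. Many tumors carry Cd47, which makes this pair a target of antibody trials, while Mertk is known above all from macrophages that clear apoptotic cells and Axl from tumor cells of mesenchymal type as well as from phagocytes.

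The study injected KPC cells, which are mouse pancreatic cancer cells kept as a line, into the pancreas of male mice and sequenced the live cells of the resulting tumors without sorting. The FLOX sample (below, flox) came from MCT1 fl/fl mice, in which parts of Slc16a1, the gene of the lactate transporter MCT1, lie between loxP sites. The MCT1-KO sample came from mice with Col1a2-CreERT2, a tamoxifen-inducible recombinase. Its promoter is active in fibroblast-like cells, among them the pancreatic stellate cells (PSCs). Tamoxifen or corn oil was injected before the KPC cells. The paper does not say which group received which, nor whether the flox mice carried the recombinase. Genotype and injection may thus both differ between the samples. The comparison asks what the loss of lactate uptake in PSCs does to the other cells of the tumor. There was 1 library per condition, so no difference below has a replicate check: levels are unique molecules (UMIs) per 1000000 UMIs of a cell class (CPM), and the 95% intervals cover counting error only.

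The libraries held 177334432 UMIs (flox) and 151118092 UMIs (MCT1-KO), and the filters on UMIs, genes and mitochondrial share left 8739 and 11689 cells with a median of 4069 and 3706 UMIs. Kept cells of the libraries had 59 barcodes in common, 0.675% of flox and 0.505% of MCT1-KO cells. Clusters were named from fixed marker genes into 9 classes, and 23.7% of flox cells and 33.5% of MCT1-KO cells, most of them with few UMIs or the profile of free RNA, stayed unnamed. Slc16a1 stood at 25.5 CPM in PSC-like cells of the flox library and at 35.6 CPM in those of the library labelled MCT1-KO, a ratio of 1.39 (1.00 to 1.95). The level of the targeted gene in these cells thus did not follow the label, although its reads need not come from the deleted part. Tumor-like cells had more Slc16a1, at 38.1 and 46.2 CPM, with a ratio of 1.21 (1.13 to 1.30). Every direction below is that of the library labelled MCT1-KO. Acinar RNA was far more abundant in that library: Prss2, a digestive enzyme, stood at 48.3 CPM in the free RNA of flox, that is in barcodes of 10 to 100 UMIs, and at 1890.2 CPM in that of MCT1-KO. Free RNA, scaled to C1qa, C1qb, C1qc and Tyrobp, came to 18.5% of PSC-like UMIs in flox and 34.3% in MCT1-KO. The part of free RNA in the Slc16a1 ratio was not tested.

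The label of the main classes was checked against their markers. The 2617 flox and 3805 MCT1-KO tumor-like cells carried the keratins Krt8 (416 and 528 CPM) and Krt18 (547 and 603 CPM), whereas Epcam (0.439 and 0.529 CPM), Cldn4, Hmga2 and Cdkn2a were each under 1 CPM. The tumor-like name therefore rests on keratins, and markers of PSC-like cells, collagens among them, summed to 2139 and 1356 CPM in the same cells. In the 2225 and 1870 macrophage-like cells all 10 markers were detected, with C1qa at 4908 and 5206 CPM. No cluster was named monocyte-like: the 6 monocyte markers summed to 227 and 485 CPM in macrophage-like cells and were highest in neutrophil-like cells. A further cluster of 337 and 344 cells carried all 10 macrophage markers but stayed unnamed for its few UMIs, so the macrophage-like class does not hold every macrophage or monocyte.

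**Figure D1:**
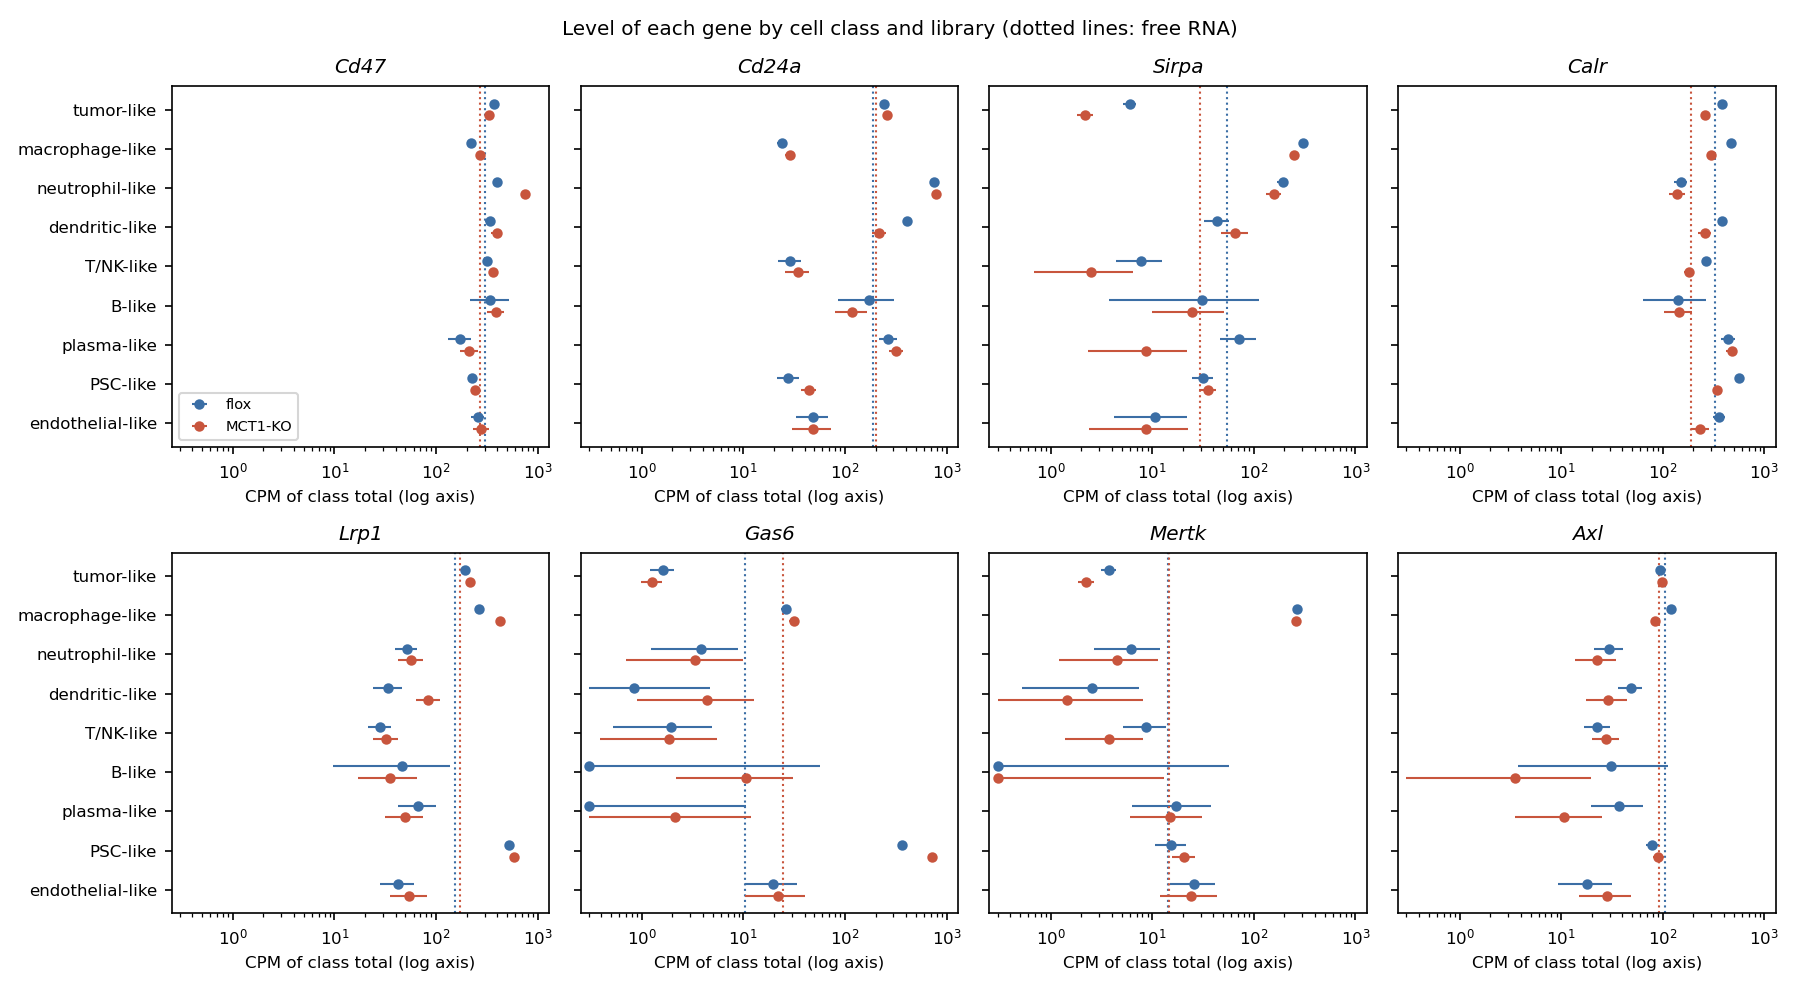
Level of each of the 8 genes in CPM (log axis) in every cell class of the flox and MCT1-KO libraries, with 95% counting intervals; dotted lines give the level in free RNA and a level of 0 is drawn at 0.3. Of the named classes, Mertk stood above 100 CPM in macrophage-like cells alone, Gas6 in PSC-like cells alone, and Cd47 in all 9.

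Cd47, the signal that restrains phagocytes, was found in every class within a 3.0-fold range of mean levels. It was highest in neutrophil-like cells, at 396 CPM in flox and 751 CPM in MCT1-KO. Dendritic-like (339 and 397 CPM), B-like (342 and 387 CPM), tumor-like (373 and 331 CPM) and T/NK-like cells (315 and 363 CPM) followed, and the ranges of their 2 libraries overlapped from each class to the next. Endothelial-like (258 and 277 CPM), macrophage-like (219 and 273 CPM) and PSC-like cells (225 and 241 CPM) lay below these, and plasma-like cells were lowest with 172 and 210 CPM. The tumor-like level was above that of free RNA (300.1 and 270.5 CPM), whereas the macrophage-like level was below it in flox and at it in MCT1-KO.

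In tumor-like cells Cd47 was slightly lower in the library labelled MCT1-KO, with a ratio of 0.886 (0.866 to 0.906) over 12756 and 18129 UMIs, and it was below 1 in each of the 5 tumor-like clusters. The share of tumor-like cells with a Cd47 UMI followed this only in part: after every cell was thinned to 1000 UMIs it was 27.8% (26.0 to 29.6) in flox and 27.4% (25.9 to 28.8) in MCT1-KO, the ratio of the shares was 0.824 at 500 UMIs and 0.992 at 2000 UMIs, and the unthinned shares of 80.4% and 88.8% ran the other way. In macrophage-like cells the ratio was 1.24 (1.18 to 1.31), with 18.9% and 24.0% of cells at 1000 UMIs, and in T/NK-like cells 1.15 (1.03 to 1.29). The neutrophil-like ratio was the furthest from 1, at 1.90 (1.69 to 2.13) over 518 and 671 UMIs. After every cell was thinned to 1000 UMIs, 31.5% (28.1 to 35.1) of 704 flox and 52.2% (47.4 to 57.0) of 435 MCT1-KO neutrophil-like cells had a Cd47 UMI, so the neutrophil-like ranges did not overlap on either measure; 54 and 268 shallower cells were left out, and the unthinned shares were 42.9% and 53.5%. Cd47 was the only member of the 6 with at least 50 UMIs in neutrophil-like cells to pass 1.5-fold, where 24.2% of 4864 genes did. The markers of that class moved too: G0s2 went from 5386 to 1439 CPM and Csf3r from 1062 to 547 CPM, while Retnlg went from 4361 to 6401 CPM and the 6 monocyte markers together from 2183 to 8973 CPM. Their part in the Cd47 ratio was not tested.

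Cd24a, a sialylated surface protein that in human tumors is read by the receptor Siglec-10, followed another order. Neutrophil-like cells were highest with 756 CPM in flox and 781 CPM in MCT1-KO, 2.47-fold above the next class and with no overlap. Dendritic-like (406 and 216 CPM) and plasma-like cells (267 and 318 CPM) came next, and tumor-like cells had 243 and 261 CPM. Macrophage-like cells were lowest with 24.0 and 28.8 CPM, under the free RNA (190.1 and 201.5 CPM), and PSC-like (27.8 and 43.8 CPM) and T/NK-like cells (28.9 and 34.4 CPM) were as low. Over all classes the mean level spanned 29.2-fold. An unnamed cluster of 37 flox and 66 MCT1-KO cells, led by epithelial genes such as Ttr and Tff1 and rich in Epcam (552 and 1219.7 CPM), had 589.8 and 619.9 CPM of Cd24a and 140 and 138 CPM of Gas6.

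The tumor-like ratio of Cd24a was 1.07 (1.04 to 1.10), in the opposite direction to that of Cd47, and 36.6% of flox tumor-like cells with a Cd47 UMI also had one of Cd24a at 2000 UMIs per cell, against 38.5% of those without. In MCT1-KO these shares were 40.7% and 37.3%, and in each library the intervals of the 2 shares overlapped. Both ligands were detected in 18.0% of flox and 19.9% of MCT1-KO tumor-like cells at that depth. Dendritic-like cells had the lowest Cd24a ratio of the classes with at least 50 UMIs, 0.531 (0.439 to 0.639) over 480 and 149 UMIs from 115 and 108 cells. At 1000 UMIs per cell, however, 18.0% (11.4 to 26.4) and 17.7% (10.7 to 26.8) of these cells had a Cd24a UMI, against 2.13% and 2.04% of macrophage-like cells, and at 2000 UMIs 40.6% and 31.9%, with intervals that overlapped at both depths; the unthinned shares were 65.2% and 48.1%. Xcr1 and Clec9a, markers of the cross-presenting dendritic subset, were lower there as well (367 to 140 CPM and 208 to 88.3 CPM), and their part in the Cd24a ratio was not tested. Siglecg, the mouse relative of the receptor for Cd24a, was at or under 0.272 CPM in tumor-like and macrophage-like cells of both libraries, from 1 to 4 UMIs in each. It was found in B-like cells, at 124 and 102 CPM on 8 and 29 UMIs, and in dendritic-like cells, at 44.0 and 43.4 CPM on 52 and 30 UMIs.

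Sirpa, the receptor of Cd47, was a myeloid gene in these data. Macrophage-like cells had 305 CPM in flox and 247 CPM in MCT1-KO, and neutrophil-like cells 193 and 157 CPM, below them with no overlap. Dendritic-like cells followed with 43.2 and 65.2 CPM. Macrophage-like cells held 83.3% and 79.6% of all Sirpa UMIs in kept cells, from 24.0% and 12.4% of the UMIs of all genes. In tumor-like cells Sirpa was at 6.0 and 2.17 CPM, below the 53.8 and 29.3 CPM of free RNA, and it came with C1q transcripts: 21.5 and 19.1 Sirpa UMIs per 1000 UMIs of C1qa, C1qb and C1qc, against 20.3 and 15.7 in macrophage-like cells and 14.7 and 11.8 in free RNA. Free RNA, scaled to the C1q and Tyrobp UMIs of the tumor-like cells, came to 7.69% of their UMIs in flox and 4.61% in MCT1-KO. The source of the tumor-like Sirpa UMIs was not tested.

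Within macrophage-like cells Sirpa was lower in the library labelled MCT1-KO, with a ratio of 0.812 (0.773 to 0.853), and it was below 1 in each of the 3 macrophage-like clusters, from 0.799 to 0.824. In neutrophil-like cells the ratio was 0.810, with an interval (0.654 to 0.9996) that ended at the edge of 1. Over all kept cells of the tumor the Sirpa ratio was 0.438 (0.419 to 0.458), further from 1 than in any of the main myeloid classes, and macrophage-like cells were 25.5% of flox and 16.0% of MCT1-KO cells. At 1000 UMIs per cell 26.5% (24.7 to 28.4) of flox and 22.5% (20.6 to 24.5) of MCT1-KO macrophage-like cells had a Sirpa UMI, against 1.06% and 0.465% of tumor-like cells; without thinning the macrophage-like shares were 78.7% and 67.0%. Sirpa has close paralogs, and how the authors' counting divided reads among them is not given in the sources used here, so its level is uncertain where these are expressed. In neutrophil-like cells Sirpb1b went from 224 to 442 CPM and Sirpb1c from 98.6 to 337 CPM, the opposite way to Sirpa. In macrophage-like cells Sirpb1b went from 36.5 to 22.4 CPM and Sirpb1a from 14.5 to 10.1 CPM, the same way as Sirpa, and Sirpb1c from 111 to 121 CPM.

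**Figure D2:**
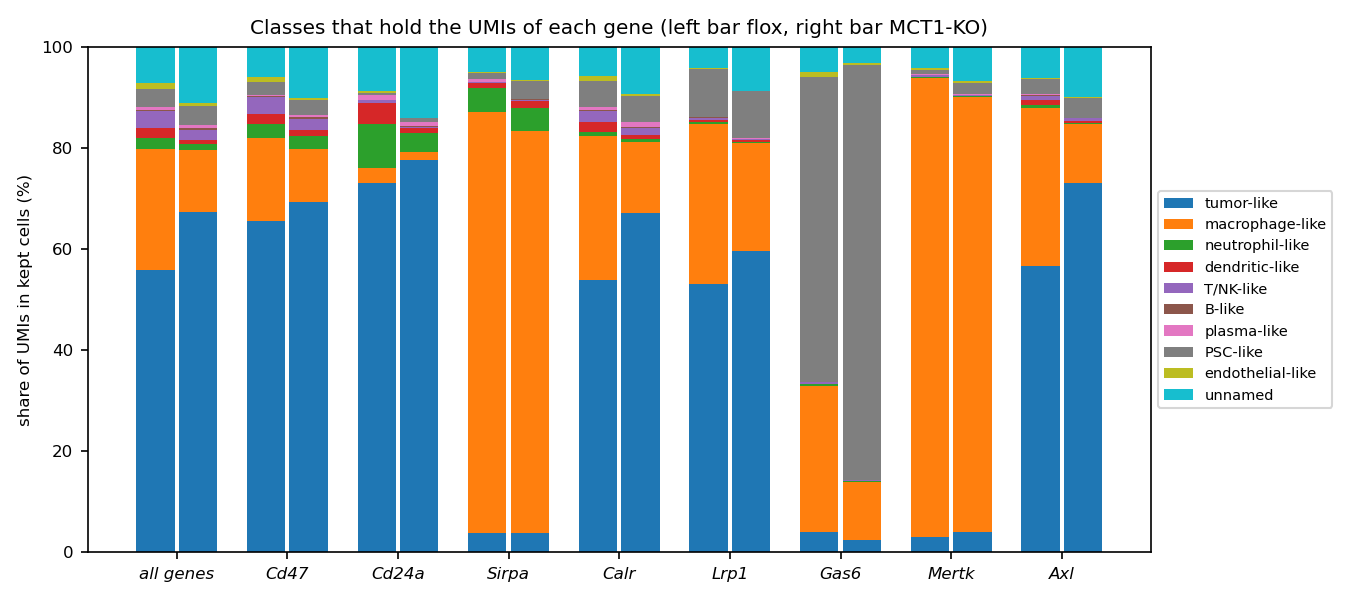
Share of the UMIs of each gene (and of all genes, first pair of bars) that each cell class holds, in percent of the UMIs in kept cells, with flox on the left and MCT1-KO on the right of each pair. Mertk and Sirpa lay mostly in macrophage-like cells (90.8% and 83.3% in flox), Gas6 in PSC-like cells and the other genes mostly in tumor-like cells.

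Calr encodes the chaperone calreticulin, which folds glycoproteins in the endoplasmic reticulum. Its mean level spanned 3.22-fold over the classes. Plasma-like (439 and 476 CPM), PSC-like (567 and 338 CPM), macrophage-like (467 and 296 CPM) and tumor-like cells (381 and 260 CPM) led. Dendritic-like (382 and 258 CPM), endothelial-like (359 and 234 CPM) and T/NK-like cells (265 and 182 CPM) followed. The ranges of the 2 libraries overlapped from each of these classes to the next, but the difference between the libraries widened most of these ranges. Within each library PSC-like cells lay above macrophage-like cells, and these above tumor-like cells, with intervals that did not overlap. For the last 2 classes the intervals were 456 to 478 and 374 to 387 CPM in flox, and 286 to 307 and 256 to 264 CPM in MCT1-KO. Neutrophil-like (151 and 139 CPM) and B-like cells (140.0 and 144 CPM) were apart and lower. The transcript says nothing of how much calreticulin stood on the cell surface, where it acts as a signal.

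Calr was lower in the library labelled MCT1-KO in nearly every well-covered class. The ratio was 0.683 (0.667 to 0.70) in tumor-like, 0.634 (0.607 to 0.662) in macrophage-like, 0.597 (0.550 to 0.648) in PSC-like, 0.688 (0.595 to 0.794) in T/NK-like, 0.675 (0.564 to 0.805) in dendritic-like and 0.651 (0.513 to 0.821) in endothelial-like cells. Only the neutrophil-like (0.921), plasma-like (1.09) and B-like (1.03) ratios had intervals that held 1. Free RNA showed 0.584 (0.565 to 0.605), so the difference was not that of 1 class. In macrophage-like cells 7.67% of the 11135 genes with at least 50 UMIs had a lower ratio than Calr, and in tumor-like cells 9.40% of 13240.

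Hspa5, Hsp90b1 and Pdia3 were lower as well in the main classes. Hspa5 (BiP), the main chaperone of the endoplasmic reticulum, had ratios of 0.516 in tumor-like, 0.521 in macrophage-like and 0.527 in PSC-like cells, and Hsp90b1 (Grp94) had 0.651, 0.677 and 0.619. Pdia3, the disulfide isomerase that works with calreticulin, had 0.845, 0.820 and 0.705. Canx, the membrane-bound relative of calreticulin, was close to 1 in the same classes with 1.04, 0.95 and 0.908. Over the 6 fixed partners, Lrpap1 and Thbs1 included, ratios ran from 0.516 to 1.04 in tumor-like and from 0.521 to 1.05 in macrophage-like cells. Neutrophil-like cells, whose Calr interval held 1, had Hspa5 at 0.991 (0.872 to 1.13). Cytosolic heat shock genes were lower too: Hspa1a went from 1097 to 118 CPM in macrophage-like cells and Hsph1 from 361 to 33.2 CPM in tumor-like cells, and all 5 of those followed were lower in MCT1-KO in each of the 7 classes with at least 50 cells per library and in free RNA. The part of the heat shock difference in the Calr ratio was not tested, and with 1 library per condition the handling of a sample and its genotype cannot be told apart.

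Promoter segments of Calr and 3 of its fixed partners are shown because they hold the same element, so these genes were picked by the match and not by their ratios. The endoplasmic reticulum stress response element, searched as CCAAT, then 9 bases of any kind, then CCACG, on both strands in the 250 bases before and 50 after each start in the RefSeq annotation (GRCm38.p6), was found in 39 of 32851 promoters, or 0.119%. Of the 8 members 6 had a promoter entry, and of these Calr alone held the element. Among its 6 fixed partners Canx, Hspa5 and Hsp90b1 held it, Pdia3 and Lrpap1 did not, and Thbs1 had no promoter entry. The element is in capitals below, read along each gene's strand, and on the opposite strand it appears as its reverse complement. A match is a description of the letters: Canx holds the element with ratios close to 1, and Pdia3, which was lower, does not hold it in this window.
Calr, minus strand of chr8:84847055-84847113: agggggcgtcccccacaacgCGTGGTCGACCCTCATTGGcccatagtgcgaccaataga
Hspa5, plus strand of chr2:34772005-34772063: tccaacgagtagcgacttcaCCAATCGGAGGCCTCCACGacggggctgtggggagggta
Canx, minus strand of chr11:50325780-50325838: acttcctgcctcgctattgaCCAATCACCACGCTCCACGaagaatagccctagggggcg
Hsp90b1, minus strand of chr10:86705513-86705676: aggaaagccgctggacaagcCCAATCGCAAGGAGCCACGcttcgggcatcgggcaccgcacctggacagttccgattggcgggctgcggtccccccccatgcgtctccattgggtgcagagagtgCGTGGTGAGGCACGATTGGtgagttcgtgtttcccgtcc

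**Figure D3:**
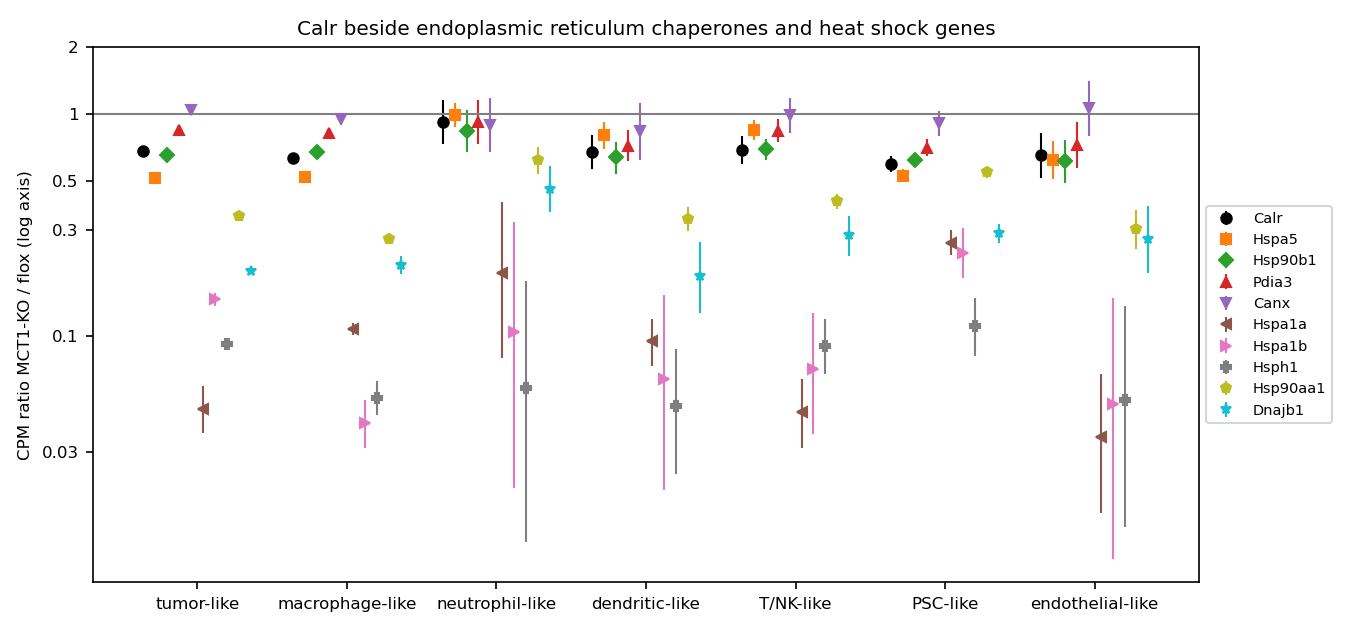
Ratio of MCT1-KO over flox CPM (log axis) for Calr, its partners Hspa5, Hsp90b1, Pdia3 and Canx, and heat shock genes by cell class, with 95% counting intervals. In macrophage-like cells Calr (0.634) lay between Canx (0.95) and Hspa5 (0.521), and the cytosolic heat shock genes lay below Calr in each class shown.

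Lrp1, a large endocytic receptor that binds calreticulin among many ligands, was highest in PSC-like cells (519 CPM in flox, 585 CPM in MCT1-KO). Macrophage-like cells had 265 and 426 CPM and tumor-like cells 192 and 218 CPM, each apart from the class above. The other classes lay at or under 84.0 CPM, and T/NK-like cells were lowest with 28.0 and 31.9 CPM, well under the free RNA (152 and 174 CPM).

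The Lrp1 ratio in macrophage-like cells was 1.61 (1.54 to 1.68) over 3891 and 4299 UMIs, above that of 95.1% of the genes with at least 50 UMIs in that class. It was above 1 in all 3 macrophage-like clusters. The ratio was 1.81 in the cluster led by Lilra5 and Gpr34, 1.35 in the one led by Arg1 and Folr2, and 1.58 in the cycling one. At 1000 UMIs per cell 23.1% (21.3 to 24.9) of flox and 32.0% (29.9 to 34.2) of MCT1-KO macrophage-like cells had a Lrp1 UMI, and unthinned shares were 68.0% and 78.2%. The ratio was 1.14 (1.10 to 1.17) in tumor-like cells and 1.14 in free RNA. In PSC-like cells it was 1.13 (1.05 to 1.21), or 1.31 with free RNA subtracted. The main ratio was 1.66 (1.5 to 1.83) in unnamed cells, and in the 115 and 108 dendritic-like cells 40 and 58 UMIs gave 2.48 (1.63 to 3.81). Unthinned, 25.2% (17.6 to 34.2) and 30.6% (22.1 to 40.2) of the dendritic-like cells had a Lrp1 UMI. At 1000 UMIs per cell 0 of 111 (0 to 3.27%) and 7 of 96 (2.98% to 14.4%) had one. The intervals overlapped on both measures. In those dendritic-like cells the 10 tumor-like markers together went from 134 to 446 CPM, the 9 PSC-like markers from 169 to 277 CPM and the 8 dendritic-like markers from 1302 to 799 CPM, and their part in the Lrp1 ratio was not tested. Within macrophage-like cells Lrp1 and Sirpa did not keep to separate cells: at 2000 UMIs 38.4% of flox cells with a Sirpa UMI and 38.4% of those without had a Lrp1 UMI, and in MCT1-KO 51.2% and 51.3%. Mrc1, a mannose receptor that marks scavenging macrophages, stood at 373 and 793 CPM in the class. Other markers of the class did not move alike. Ms4a7 (926 and 630 CPM), Pf4 (626 and 504 CPM), Adgre1 (271 and 199 CPM), Arg1 (656 and 563 CPM) and Cd68 (522 and 495 CPM) were lower. C1qa (4908 and 5206 CPM), C1qb (6087 and 6312 CPM), C1qc (4023 and 4285 CPM) and Csf1r (530 and 537 CPM) were slightly higher. Their part in the Lrp1 ratio was not tested.

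Mertk marked the macrophages. It had 266 CPM in flox and 262 CPM in MCT1-KO macrophage-like cells, 10.6-fold above the next class, endothelial-like cells (25.6 and 24.0 CPM), and the macrophage-like class held 90.8% and 86.2% of its UMIs. The neutrophil-like, dendritic-like and T/NK-like levels were all under 10 CPM. The macrophage-like ratio was 0.985 (0.937 to 1.04), while over all kept cells it was 0.535 (0.510 to 0.560). Apart from Gas6, which was low throughout the class, Mertk was the member that differed most among macrophage-like clusters. In flox it stood at 327 CPM in the cluster led by Lilra5 and Gpr34, at 213 CPM in the Arg1 cluster and at 176 CPM in the cycling one. In MCT1-KO these levels were 355, 183 and 124 CPM. Mertk is itself among the leading genes of the first cluster, which restates its high level there. Arg1 itself stood at 151 CPM in the first and 1452 CPM in the second of these clusters in flox. Mertk and the other members were left out of the genes used for clustering.

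Axl, the sister kinase, was shared between macrophage-like (122 and 84.6 CPM), tumor-like (94.5 and 97.7 CPM) and PSC-like cells (78.9 and 90.7 CPM). The first 2 overlapped, and every other class was at or under 48.3 CPM. These levels were close to that of free RNA, 105 and 91.3 CPM. The macrophage-like ratio was 0.696 (0.640 to 0.755) and below 1 in each of its 3 clusters (0.660 to 0.767), whereas the tumor-like ratio was 1.03 (0.990 to 1.08). Among tumor-like clusters Axl was highest in the one led by the cytokine genes Lif and Cxcl1, with 119 and 125 CPM. Axl and Mertk were not exclusive in macrophage-like cells: at 2000 UMIs 22.9% of flox cells with a Mertk UMI had one of Axl against 21.8% of those without, and 16.2% against 14.6% in MCT1-KO.

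Gas6, the ligand that both kinases share, was highest in PSC-like cells. It stood at 363 CPM in flox and 720 CPM in MCT1-KO there, 18.7-fold above macrophage-like cells (26.2 and 31.6 CPM), and PSC-like cells, with 3.65% and 3.90% of all UMIs, held 60.5% and 82.1% of those of Gas6. Macrophage-like cells held most of the rest, 28.8% and 11.5%, beside 24.0% and 12.4% of the UMIs of all genes. Tumor-like cells had 1.61 and 1.26 CPM, from 55 and 69 UMIs, under the free RNA (10.3 and 24.6 CPM). The source of these UMIs was not tested. The PSC-like ratio was 1.99 (1.83 to 2.15) over 809 and 2285 UMIs from 235 and 428 cells, and at 1000 UMIs per cell 18.4% (13.3 to 24.3) and 32.6% (27.9 to 37.5) of PSC-like cells had a UMI, against 55.7% and 61.7% unthinned. In the same class Acta2 went from 1274 to 391 CPM, Col1a1 from 5818 to 3753 CPM and Lum from 1206 to 532 CPM, while Dcn went from 4477 to 6386 CPM, so markers of the class itself differed between the libraries; their part in the Gas6 ratio was not tested. The free RNA ratio of Gas6, 2.39 (2.08 to 2.74), pointed the same way.

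**Figure D4:**
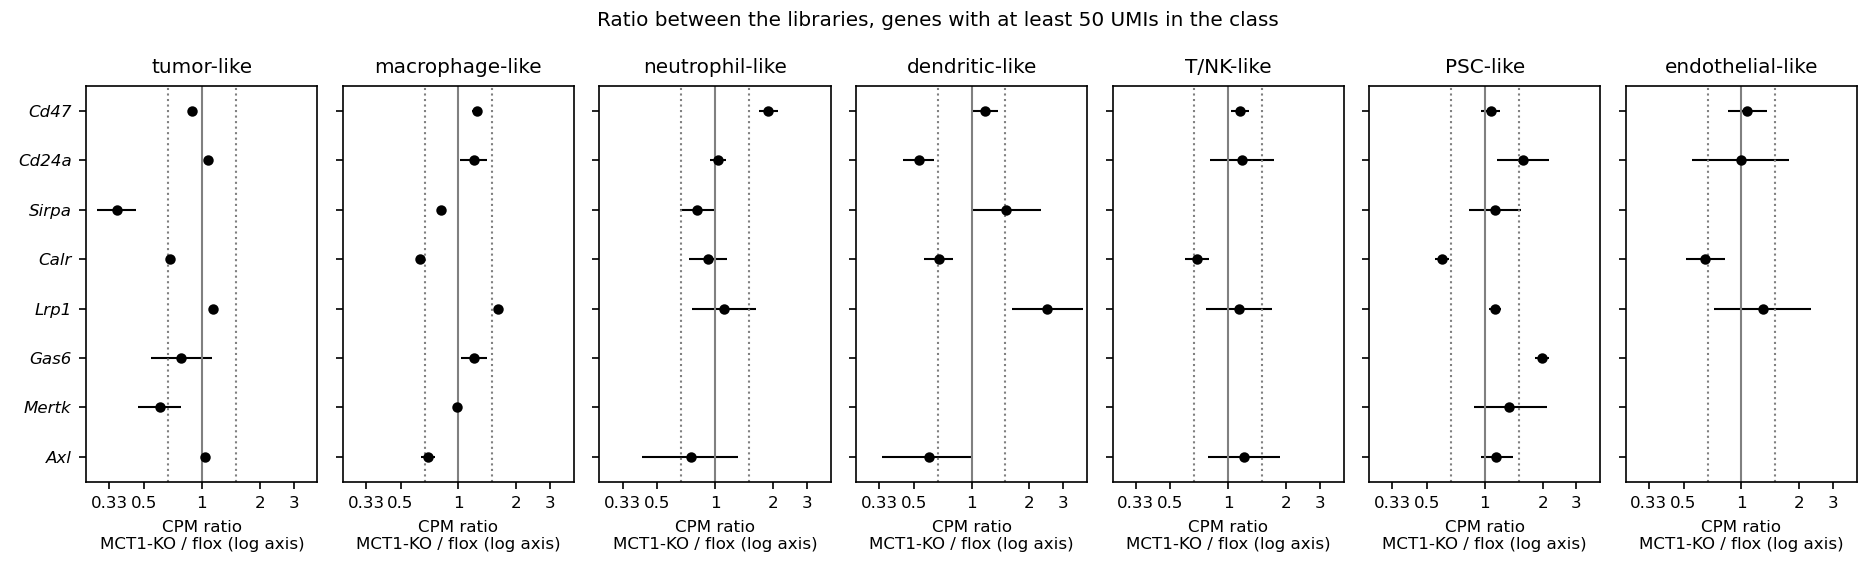
Ratio of MCT1-KO over flox CPM (log axis) for members with at least 50 UMIs in a class, with 95% counting intervals. In macrophage-like cells Lrp1 lay at 1.61 and Calr at 0.634, in PSC-like cells Gas6 at 1.99, and in neutrophil-like cells Cd47 at 1.90.

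The share of members past 1.5-fold lay above that of all genes in some classes and below it in others. Each class has at most 8 members, so nothing is read from these counts. In tumor-like cells 2 of 8 members passed, Sirpa (0.362) and Mertk (0.604), against 14.4% of all genes with at least 50 UMIs (5.63% higher and 8.77% lower in MCT1-KO). Both were under their level in free RNA in these cells. Tumor-like Mertk had 13.3 and 19.8 UMIs per 1000 C1q UMIs. Macrophage-like cells had 17.7 and 16.6, and free RNA 3.89 and 5.92. The source of these UMIs was not tested. In macrophage-like cells 2 of 8 did, Lrp1 upward and Calr downward, against 16.1% (6.62% higher and 9.44% lower). In PSC-like cells 3 of 8 did, Gas6 and Cd24a (1.58, from 62 and 139 UMIs) upward and Calr downward, against 21.1%. In dendritic-like cells 4 of 6 did, Lrp1 and Sirpa (1.51, 0.988 to 2.30) upward and Cd24a and Axl (0.600, 0.341 to 1.01) downward, against 22.4%, and 2 of these 4 intervals held 1. Of the members with at least 50 UMIs, 1 of 4 passed in endothelial-like cells (Calr, against 21.2%) and 0 of 5 in T/NK-like cells (against 16.5%). Under other processing choices the tumor-like Mertk, PSC-like Cd24a, dendritic-like Sirpa and endothelial-like Calr ratios came within 1.5-fold, at 0.953, 1.07, 1.07 and 0.885 where nearest to 1. The tumor-like Sirpa and Mertk ratios were 0.179 and 0.360 with each cell weighted alike, and the dendritic-like Sirpa ratio was 2.36 with each cell classed by its own markers. The median ratio over members was 0.834 in tumor-like and 1.09 in macrophage-like cells, beside 1.01 and 0.998 over all genes. B-like and plasma-like cells had 2 and 3 members with at least 50 UMIs and under 60 flox cells each; Sirpa went from 71.7 to 8.59 CPM in plasma-like cells, on 25 and 4 UMIs, where the myeloid gene Lyz2 went from 993 to 262 CPM.

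**Figure D5:**
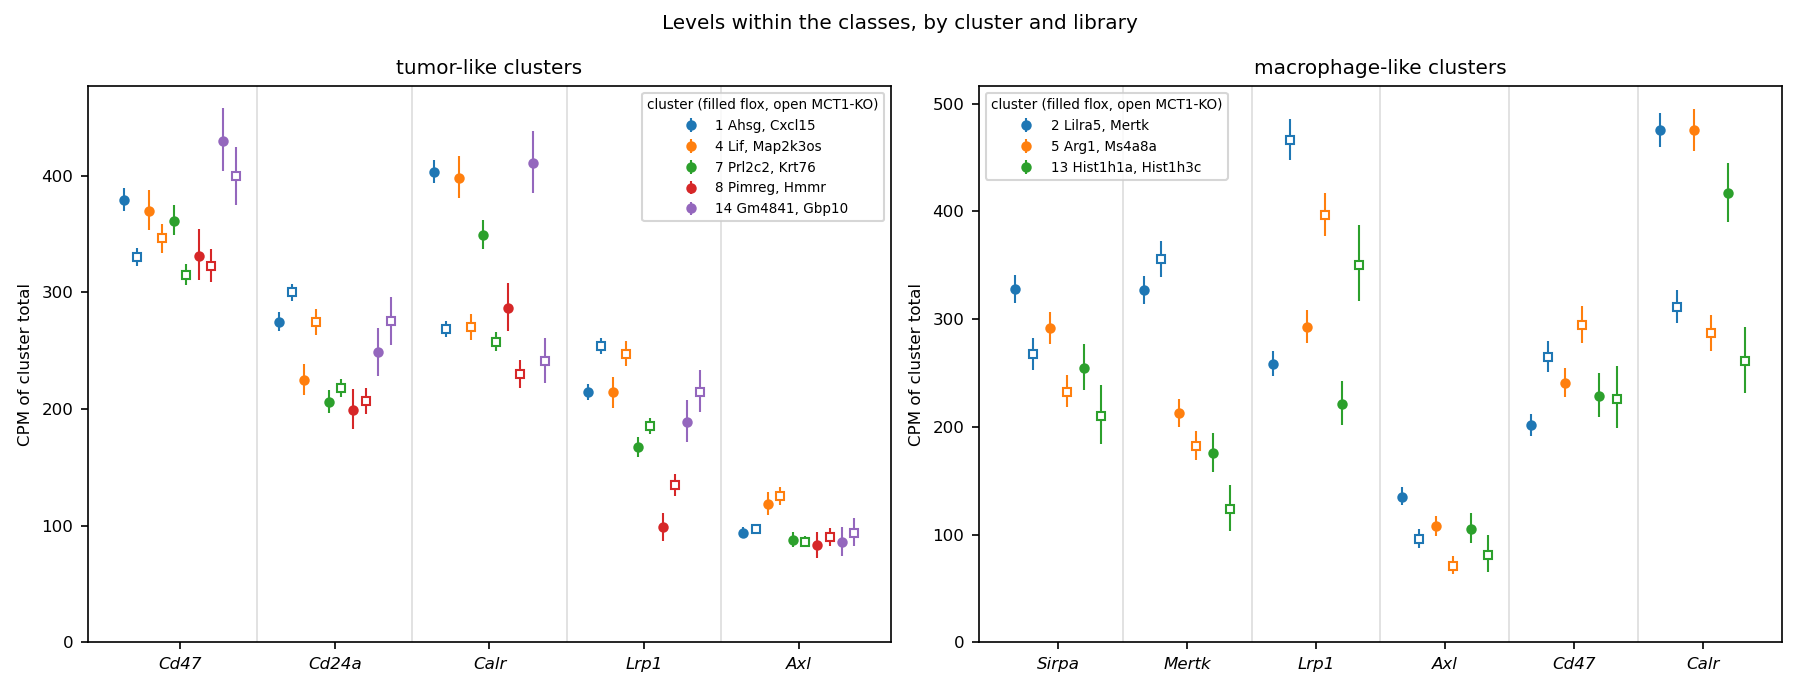
Levels in CPM by cluster within tumor-like and macrophage-like cells, for flox (filled) and MCT1-KO (open) with 95% counting intervals; the legend names each cluster by its leading genes. Mertk ranged from 124 to 355 CPM among MCT1-KO macrophage-like clusters, while tumor-like Cd47 stayed between 315 and 430 CPM in both libraries.

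Among tumor-like clusters the ligands varied little. Cd47 was highest in the cluster led by interferon-induced genes such as Gbp6 and Iigp1, with 430 CPM in flox and 399 CPM in MCT1-KO, 1.16 and 1.22 times the other tumor-like clusters. Cd24a was highest in the cluster led by Ahsg and Cxcl15 (275 and 300 CPM) and lowest in the cycling one (199 and 207 CPM). Lrp1 was lowest in the cycling cluster, at 98.6 and 135 CPM, against 214 and 254 CPM in the Ahsg cluster.

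The other 53 genes of phagocytosis signalling, in 8 lists by role, give the setting. In tumor-like cells 47 had at least 50 UMIs, of which 0 were past 1.5-fold higher and 15 lower, against 5.63% and 8.77% of all genes, with a median ratio of 0.812 beside 1.01 over all genes. The most extreme were Fcgr1 (0.265), Rac2 (0.274), Fcer1g (0.371) and Stab1 (0.419), all myeloid genes at low level in these cells, and C1qa there went from 93.7 to 39.7 CPM. Cd274 (PD-L1) was lower too, at 33.5 and 16.5 CPM, and with it 3 of the 6 inhibitory ligands and modifiers passed. The 5 genes of phosphatidylserine exposure were within 1.5-fold, with Ano6, a scramblase, the highest at 1.36 (1.32 to 1.41). Itgav, an integrin subunit of engulfment receptors, had 1.13, and Qpctl, the enzyme that modifies Cd47 so that Sirpa binds it, had 1.13 (0.994 to 1.29).

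In macrophage-like cells 45 of the 53 genes had at least 50 UMIs, with 3 past 1.5-fold higher, 6 lower and a median of 0.896. These counts were near the background of that class (6.62% higher and 9.44% lower), so nothing about the lists is read from them, and the genes below are given by their values. Of the 8 genes of phosphatidylserine bridges and receptors with enough UMIs, whose median ratio was 0.833, Cd36 (0.371), Itgb5 (0.524) and Itgav (0.532, from 436 to 232 CPM) passed downward. Pros1, the other ligand of Mertk, was at 1.496 (1.27 to 1.76) and did not pass. The 5 Fc receptor genes had a median ratio of 1.20, and Fcgr3 alone passed 1.5-fold with 1.56 (1.52 to 1.61). Among inhibitory receptors and phosphatases Pirb had 1.77 (1.65 to 1.90), while Ptpn6 (Shp-1), a phosphatase that Sirpa recruits, had 0.779. Adam17, a protease that sheds Mertk, had 0.617, and Crk, an adaptor of the engulfment machinery, had 1.52 (1.36 to 1.69).

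Across the 7 classes with at least 50 cells per library, hence over 14 points that share libraries and depth, some members had like patterns of log2(CPM + 1). Lrp1 and Axl had r = 0.853, Cd47 and Cd24a 0.776, and Cd47 and Calr -0.760. Among 11012 genes the closest to each member were Cs for Cd47 (0.930), Zbtb42 for Cd24a (0.931), Wfdc17 for Sirpa (0.972), Tmco1 for Calr (0.933), Sdc4 for Lrp1 (0.949), Gpx3 for Gas6 (0.945), Arg1 for Mertk (0.959) and Nacc2 for Axl (0.913). Next came Cebpz and Nfkb2 for Cd47, Prkar2b and St3gal5 for Cd24a, Fcgr4 and Cybb for Sirpa, Eef2kmt and Manf for Calr, Vav2 and Timp2 for Lrp1, Igfbp4 and Lpl for Gas6, Apoe and Itm2b for Mertk, and Npc2 and Naglu for Axl, all with r of at least 0.894. These are descriptions over few points, and a likeness over classes need not hold within a class. In flox macrophage-like clusters, Mertk stood at 327 CPM where Arg1 stood at 151 CPM, and at 213 CPM where Arg1 stood at 1452 CPM.

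On GRCm38 (GENCODE vM21) the members lie at chr16:49800533-49915010 on the plus strand (Cd47, ENSMUSG00000055447), chr10:43578284-43584265 plus (Cd24a, ENSMUSG00000047139), chr2:129592835-129632228 plus (Sirpa, ENSMUSG00000037902), chr8:84841850-84846934 minus (Calr, ENSMUSG00000003814), chr10:127538161-127621148 minus (Lrp1, ENSMUSG00000040249), chr8:13465374-13494490 minus (Gas6, ENSMUSG00000031451), chr2:128698956-128802894 plus (Mertk, ENSMUSG00000014361) and chr7:25757273-25788705 minus (Axl, ENSMUSG00000002602). The build behind the counts is not settled, since the methods name a human one, so these positions come from the identifiers alone.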

How the data were processed

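Live cells of a FLOX and an MCT1-KO tumor sample gave 1 single-cell library each; the labels name the SeekOne MM kit, and the methods 10x Chromium or SeekOne DD. Per the methods, Fastp trimmed the reads and SeekOneTools counted unique molecules; the authors deposited these UMI counts without normalization, for all barcodes. The methods and processing notes name the human build GRCh38 and Seurat 4.0.0, but the gene identifiers are mouse.

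Barcodes with at least 500 UMIs, 200 to 5000 genes and an mt- share up to 8% were kept. The upper limit on genes left out 2062 flox and 1231 MCT1-KO barcodes. Clustered without that limit, 4638 flox and 5246 MCT1-KO cells were tumor-like, against 2617 and 3805 with it. Tumor-like values thus leave out many gene-rich cells, more of them in flox. Cells were log-normalized (factor 10000), integrated by canonical correlation on 2000 variable genes, without the members and the phagocytosis lists, and clustered on 20 dimensions at resolution 0.8 in Seurat 5.3.0 (R 4.3.3, Matrix 1.6.5). A cluster took the name of a class with 3 or more markers that 10% of its cells showed and that stood at least 2-fold above the lower quartile over clusters; it stayed unnamed with few UMIs, markers of several classes, or markers at the level of free RNA. These thresholds were set after the clusters had been seen, and the members and lists were chosen with earlier results of these data known. Doublets were kept, and left out as an alternative.

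UMIs were summed per class and library with scipy 1.17.1, numpy 2.4.6 and pandas 2.3.3 under python 3.11.15. Levels have exact Poisson, ratios conditional exact and shares Clopper-Pearson 95% intervals. With 1 library per condition no test was made; called means a CPM ratio past 1.5-fold among genes with at least 50 UMIs in a class. The named genes were the members, the 4 most extreme ratios of the phagocytosis lists in each direction in tumor-like and macrophage-like cells, the 3 genes most like each member, Slc16a1 and 5 heat shock genes; further genes were named after their values were seen, as markers of a class, relatives of a member or list members with a known role. On counts drawn as Poisson at the macrophage-like level for 11106 genes, the intervals held the true ratio for 95.3% of genes. This checks the calculation only, since such draws leave out the spread between cells and between tumors. Home classes had been set as tumor-like and as macrophage-like with monocyte-like cells. Figures used matplotlib 3.10.9.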

Additional observations from a re-analysis of the deposited data

Results flagged for a closer look

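The Cd47 ratio of MCT1-KO over flox lay on different sides of 1 in different cell classes. It was 1.896 in neutrophil-like cells and 0.8858 in tumor-like cells, and in all 4 classes had intervals above 1 (macrophage-like, neutrophil-like, dendritic-like and T/NK-like) while 1 had an interval below it. The difference between the classes was not tested, since each condition has 1 library.

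The Cd24a ratio was 1.576 in PSC-like and 0.5309 in dendritic-like cells. For this gene 3 classes had intervals above 1 (tumor-like, macrophage-like and PSC-like) and the dendritic-like one had its interval below 1. This difference was not tested either, and Cd24a in PSC-like and macrophage-like cells was far below its level in free RNA.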

How the results depend on the processing

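The member ratios past 1.5-fold in tumor-like, macrophage-like, neutrophil-like, PSC-like, dendritic-like and endothelial-like cells kept their side of 1 under every alternative that gave a value (free RNA subtraction left no Cd24a in PSC-like cells). Of these, 4 came within 1.5-fold in one setting or more, the nearest to 1 being Mertk in tumor-like (0.953 with markers against the median), Cd24a in PSC-like (1.07 with each cell classed by its markers), Sirpa in dendritic-like (1.07, but 2.36 with each cell classed by its markers) and Calr in endothelial-like cells (0.885), the 1.07 of Sirpa and this value with each cell weighted alike. The Lrp1 ratio of macrophage-like cells (1.61) and the Axl ratio of tumor-like cells (1.03) stayed within their intervals in all 15. With clusters from barcodes without an upper limit on genes, the tumor-like ratios were 0.920 for Cd47 and 1.34 for Gas6, which lay above 1 there (1.08 with no integration), and tumor-like over macrophage-like levels were 4.94 for Cd24a (main value 9.60) and 0.891 for Calr (0.846). With each cell classed by its own markers, tumor-like ratios were 0.917 (Cd47), 1.00 (Cd24a) and 0.756 (Calr), and tumor-like over macrophage-like levels were 4.97 (Cd24a) and 0.0977 (Gas6). With each cell weighted alike, tumor-like ratios were 0.909 (Cd47), 1.12 (Cd24a), 0.652 (Calr), 0.477 (Gas6), 0.179 (Sirpa) and 0.360 (Mertk), macrophage-like ratios 0.735 (Sirpa) and 0.901 (Mertk), and tumor-like over macrophage-like levels 10.5 (Cd24a), 0.0216 (Sirpa), 0.0811 (Gas6) and 0.0170 (Mertk). With free RNA subtracted, the tumor-like Gas6 ratio was 0.147, and the levels were 23.9 (Cd24a), 0.00445 (Sirpa), 0.0113 (Gas6) and 0.00754 (Mertk). A minimum of 1000 UMIs gave a Mertk ratio of 0.934 and a Cd24a level of 7.46, leaving out likely doublets a Cd24a level of 12.3, and a total without the most abundant genes levels of 9.01 (Cd24a) and 0.794 (Calr). A minimum of 200 UMIs per gene, which tests fewer genes, left 1042 tumor-like and 945 macrophage-like genes past 1.5-fold (1906 and 1788 at 50).

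Further alternatives were chosen after seeing the data. With clusters weighted alike the ratios were 0.915 (Cd47, tumor-like) and 0.869 (Mertk, macrophage-like). With the low-UMI macrophage cluster included they were 0.751 (Sirpa) and 0.913 (Mertk), with a Cd24a level of 6.86. With markers counted against their median over clusters, tumor-like cells fell to 786 and 1477, the Calr ratio was 0.747, and levels were 7.98 (Cd24a), 0.776 (Calr), 0.477 (Lrp1) and 0.0391 (Gas6). Classing each cell by its markers moved the Gas6 ratio of PSC-like cells to 2.82 and the Cd47 ratio of neutrophil-like cells to 1.66. Without the barcodes found in both libraries, every ratio of MCT1-KO over flox recomputed stayed within its interval, and 1890 tumor-like and 1787 macrophage-like genes were past 1.5-fold. The cause of the shifts listed was not tested.

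Scaling by the median gene ratio moved neutrophil-like values by 0.10 on the log2 scale and gives no level between classes. Intervals leave out the spread between tumors, which 1 library per condition cannot show. No paired analysis was possible because each condition has a single library.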
